A study of Mus musculus with 8 samples.

Results

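The genes described here move cholesterol through brain cells and set how much of it is made. They are Lrp1, Abca1, Abcg1, Srebf1, Srebf2, Insig1, Npc1, Npc2 and Cyp46a1, picked by gene name, and all 9 were found among the 13996 genes of the deposited expression table. RNA was sequenced from the brain cortex of male C57BL/6 mice that were 8 weeks old at the start, were fed a conventional diet (normal) or a diet with 60% fat by weight (high fat, HFD) for 8 weeks, and were killed at 16 weeks. There were 4 mice in each diet group and no transgene or other treatment in either. High fat feeding in this strain is a model of weight gain and impaired glucose handling. Levels are FPKM, read fragments scaled to the length of the transcript and to the number of mapped reads, so that different genes can be compared.

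Cholesterol hardly crosses from blood into brain, so brain cells make their own and pass it between cells on lipoprotein particles that carry apolipoprotein E. Astrocytes load these particles through the transporters Abca1 and Abcg1, and neurons take them up through receptors such as Lrp1. Inside the cell Npc2 and Npc1 hand the cholesterol out of late endosomes and lysosomes. Srebf1 and Srebf2 encode membrane-bound transcription factors (SREBP-1 and SREBP-2) that switch on lipid and sterol synthesis when sterols are low, and Insig1 holds them back in the endoplasmic reticulum when sterols are plentiful. Neurons dispose of surplus cholesterol with Cyp46a1, which turns it into 24S-hydroxycholesterol. Oxysterols of this kind activate the LXR receptors, which raise transcription of Abca1, Abcg1 and Srebf1.

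Of the 9 genes, 6 differed between the diets, 3 of them higher on the high fat diet (Srebf2, Cyp46a1 and Lrp1) and 3 lower (Npc2, Abca1 and Insig1). Abcg1, Srebf1 and Npc1 did not pass the test. The test was limma on log2(FPKM + 0.1) with Benjamini-Hochberg adjustment over 13982 genes, a gene being called at an adjusted p below 0.05. Many genes differed between these groups: 33.1% of all tested genes were called, 17.7% higher and 15.3% lower on the high fat diet. No overlap between the 4 normal and the 4 high fat values was found for 31.9% of all genes and for 6 of the 9, the same 6 that were called. A change of more than 50% in a called gene was found in 7.13% of all genes and in 0 of the 9. The median log2 fold change was -0.04 over the 9 genes and 0.0031 over all tested genes.

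**Figure D1:**
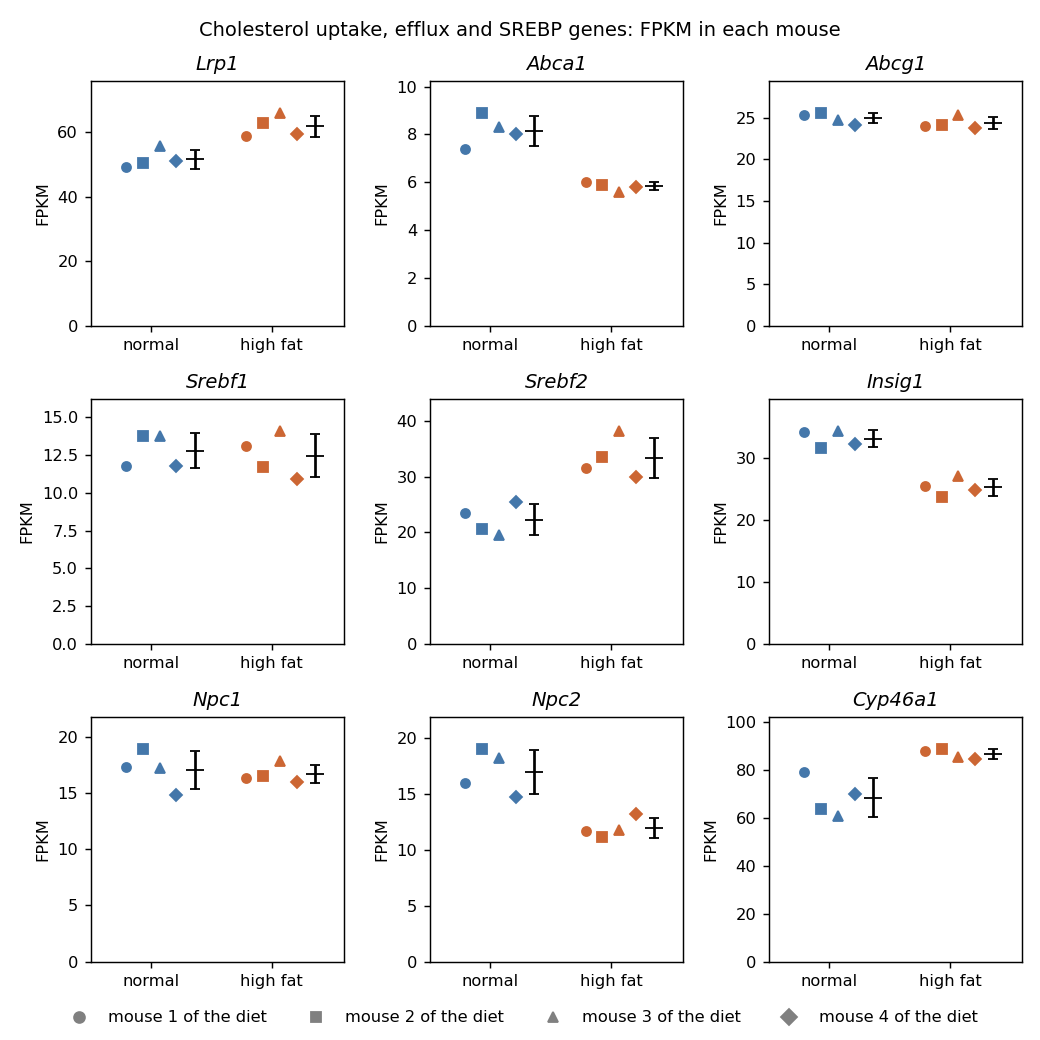
FPKM (vertical axes, from 0) of each of the 9 genes in each mouse of the normal and high fat diets, with bars for the mean ± SD of 4 mice. The diets are apart in Lrp1, Srebf2 and Cyp46a1 (higher on high fat) and in Abca1, Insig1 and Npc2 (lower), and overlap in Abcg1, Srebf1 and Npc1.

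Markers of several cell types and brain regions differed between the diets. Markers of cortical projection neurons were present in every mouse, with a summed FPKM of 515 to 774 in normal and 759 to 1015 in high fat mice, and 6 of 10 were called higher. Markers of neighbouring regions had higher sums in normal mice. Striatal markers summed to 235 to 433 against 77.5 to 87.4 FPKM (8 of 8 tested lower on high fat), thalamic markers to 57.2 to 168 against 36.6 to 39.9 (4 of 7 lower), and cerebellar markers to 55.8 to 371 against 38.1 to 46.4 (4 of 7 tested lower), with normal mice 2 and 3 the highest. Oligodendrocyte and myelin markers summed to 2269 to 3720 against 1563 to 2159 FPKM, and 12 of 12 were lower. No marker of myelin, striatum or thalamus in the table was at 0 in any mouse, and 1 of the 8 cerebellar markers in it was at 0 in at least 1 mouse. Astrocyte (1269 to 1466 against 1245 to 1322) and microglial sums (170 to 207 against 182 to 193) overlapped between the diets. Of 10 astrocyte markers, 2 were called higher and 3 lower, 2 of the latter past a 50% change. Of 9 microglial markers tested, 1 was called higher and 0 lower. In tissue RNA, fewer cells of a type, less RNA per cell and a different share of neighbouring regions in the sample cannot be told apart. Whether the dissection differed between the diets was not tested. The part of these differences in the results was not tested beyond 2 fits with marker levels as a covariate. The values of these fits are given only for genes among the 9, and the other genes named below carry none. Of 13982 tested genes, 793 were called with the cerebellar and 6 with the oligodendrocyte covariate.

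Sequences upstream of the start sites of 3 of the genes are shown because they hold matches to the elements through which sterol-sensing factors are known to act. RefSeq promoters (GRCm38.p6) were held for 7 of the 9 genes, each from 250 bases before to 50 after a start site, and this window was searched. The stretches printed are shorter and end before the start site, those of Abca1 and Srebf1 covering 250 bases to 1 base before it and that of Insig1 250 to 50 bases before it. Capitals mark the E-box CACGTG, which basic helix-loop-helix factors such as the SREBPs can bind, and the LXR element, searched as 2 half-sites GGTNA that are 5 bases apart. Both strands were searched, and no match of either overlapped the other. The promoter of Abca1 (chr4:53159896-53160145, minus strand) held both, that of Insig1 (chr5:28071162-28071362, plus strand) held the E-box, and that of the most downstream of 3 Srebf1 starts (chr11:60210472-60210721, minus strand) held the LXR element.
Abca1: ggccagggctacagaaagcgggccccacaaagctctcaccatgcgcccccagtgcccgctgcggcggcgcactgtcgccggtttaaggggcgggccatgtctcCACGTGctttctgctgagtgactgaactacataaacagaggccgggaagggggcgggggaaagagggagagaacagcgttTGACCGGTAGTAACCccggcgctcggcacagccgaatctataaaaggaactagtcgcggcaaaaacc
Insig1: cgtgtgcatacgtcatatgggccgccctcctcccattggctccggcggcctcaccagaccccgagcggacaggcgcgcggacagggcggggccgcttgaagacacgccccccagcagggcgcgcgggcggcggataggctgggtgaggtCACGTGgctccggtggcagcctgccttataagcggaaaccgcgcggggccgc
Srebf1: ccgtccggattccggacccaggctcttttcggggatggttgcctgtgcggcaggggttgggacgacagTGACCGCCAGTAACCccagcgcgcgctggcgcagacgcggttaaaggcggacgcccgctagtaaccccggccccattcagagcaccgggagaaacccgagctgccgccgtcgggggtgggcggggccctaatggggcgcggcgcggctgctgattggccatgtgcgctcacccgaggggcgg

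The LXR element lay 67 bases before the start site in Abca1 and 182 bases before it in Srebf1, and was found in 0.718% of 32851 promoter entries. The E-box lay 147 bases before the start in Abca1 and 101 bases before it in Insig1, and was found in 7.15% of entries. The GC box GGGCGG was found in 7 of 7 genes and 35.7% of entries, and CCAAT in 5 of 7 genes and 37.4% of entries. The classical sterol regulatory element TCACNCCAC was found in 0 of 7 genes and 1.24% of entries. A match describes letters in the window and is not a measured binding site.

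Srebf2 also hosts a microRNA, which is shown because its known targets are the transporters of this group. Mir33 (chr15:82198122-82198190) lies in an intron of Srebf2, between exons 16 and 17 of a transcript with 19 exons. Its seed, bases 2 to 8, is in capitals in the RefSeq mature sequence, and the matching letters CAATGCA are in capitals in the target stretch of Abca1 (chr4:53033783-53033812, minus strand, GRCm38).
miR-33-5p: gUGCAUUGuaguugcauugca
Abca1 target stretch: tattCAATGCAATGCActtCAATGCAacga
The match occurred 3 times, in part overlapping, between bases 138 and 159 of the 3159-base 3′ untranslated region of Abca1, and 2 times in that of Abcg1. The other 7 genes had 0. Among 11923 genes, 8.19% had at least 1 match and 0.0923% had 3 or more. The untranslated regions of Abca1 and Abcg1 were also the longest of the 9, at 3159 and 3706 bases. This search was chosen after the expression values were seen, and the mature microRNA was not measured in these libraries.

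In normal mice the order by mean FPKM was Cyp46a1, Lrp1, Insig1, Abcg1, Srebf2, Npc1, Npc2, Srebf1 and Abca1, from 68.5 ± 8.21 FPKM down to 8.15 ± 0.624 (SD, n = 4). The per-mouse ranges of neighbours were separate except for Abcg1 with Srebf2 and Npc1 with Npc2. Cyp46a1 was above 93.8% of all tested genes and Abca1 above 40.0%, by mean level. On the high fat diet Srebf2 moved up to the third place, ahead of Insig1, and Npc2 moved down behind Srebf1. There the neighbours that overlapped were Insig1 with Abcg1 and Srebf1 with Npc2.

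Lrp1, a large endocytic receptor for apolipoprotein E particles and many other ligands (ENSMUSG00000040249, chr10:127538161-127621148, minus strand), was higher on the high fat diet. Its level was 49.2, 50.3, 55.7 and 50.9 FPKM in normal mice 1 to 4, and 58.7, 62.8, 65.9 and 59.4 in high fat mice 1 to 4. The highest normal value was 3 FPKM below the lowest high fat value. The mean rose from 51.5 ± 2.87 to 61.7 ± 3.32 FPKM (SD, n = 4), a log2 fold change of 0.26 ± 0.06 (SE, 95% interval 0.14 to 0.38, limma with Benjamini-Hochberg adjusted p = 0.00724), or 19.7% higher. With cerebellar marker level as a covariate the log2 fold change was 0.35 (adjusted p = 0.0474, limma), and with oligodendrocyte marker level 0.36 (adjusted p = 0.288, limma).

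Of 14 other tested genes for lipoprotein receptors and their regulators, 1 rose and 4 fell, and the median log2 fold change of all 15 was -0.01. Over all tested genes 17.7% were called higher and 15.3% lower. Vldlr, a receptor for reelin and apolipoprotein E, fell from 21.6 ± 1.10 to 17.1 ± 1.51 FPKM, or by 0.34 on the log2 scale (adjusted p = 0.00575, limma). Lrp8, the other reelin receptor, rose by 0.16 on the log2 scale.

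Abca1, which loads cholesterol onto lipid-poor apolipoproteins (ENSMUSG00000015243, chr4:53030787-53159895, minus strand), was lower on the high fat diet. The normal mice had 7.4, 8.9, 8.3 and 8.0 FPKM, and the high fat mice 6.0, 5.9, 5.6 and 5.8 FPKM. The groups were 1.4 FPKM apart, and the high fat mice lay close together, with a coefficient of variation of 2.93% against 7.66% in the normal mice. The mean fell from 8.15 ± 0.624 to 5.83 ± 0.171 FPKM (SD, n = 4), a log2 fold change of -0.47 ± 0.07 (SE, 95% interval -0.63 to -0.32, limma adjusted p = 0.00145), or 28.0% lower. With the cerebellar covariate the value was -0.32 (adjusted p = 0.0831, limma) and with the oligodendrocyte covariate -0.44 (adjusted p = 0.296, limma).

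Abcg1, the half-transporter that passes cholesterol on to particles already holding lipid (ENSMUSG00000024030, chr17:31057675-31117988, plus strand), had overlapping levels. The normal mice had 25.4, 25.6, 24.7 and 24.2 FPKM and the high fat mice 24.0, 24.2, 25.4 and 23.8 FPKM. Its spread was the smallest of the 9 genes in normal mice, with a coefficient of variation of 2.58%. The log2 fold change was -0.04 ± 0.04 (SE, 95% interval -0.13 to 0.06, limma adjusted p = 0.534).

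The transporter pair therefore changed unequally. The log2 ratio of Abca1 to Abcg1 within a mouse was -1.77, -1.51, -1.56 and -1.58 in normal mice and -1.98, -2.02, -2.16 and -2.02 in high fat mice. All 4 high fat ratios were below all 4 normal ratios, with means of -2.04 ± 0.0795 and -1.61 ± 0.110 (SD) and a difference of -0.44. The exact two-sided permutation test over 70 assignments gave p = 0.0286, the smallest it can give, and 0.0286 after adjustment over 3 ratios. The 3 ratios reuse the values of the single genes. Abca1, Srebf2 and Npc2 alone already had no overlap between the diets, as did 31.9% of all genes. The ratios and their p-values are therefore not separate support for a change. Of 17 other tested genes for efflux, apolipoproteins and LXR, 5 rose and 4 fell (median of all 19, -0.03), beside 17.7% and 15.3% of all genes. Abcg4, the neuronal relative of Abcg1, rose from 7.45 ± 0.404 to 10.3 ± 0.723 FPKM (log2 fold change 0.46), and Rxra, a partner of the LXRs, rose by 0.37 on the log2 scale. Abca8a rose from 1.05 ± 0.1 to 2.15 ± 0.208 FPKM (0.97), with a normal level near the filter limit of 1 FPKM. Lpl, the lipase of lipoprotein triglyceride, fell from 3.98 to 2.23 FPKM (-0.82), and Lpcat3, an LXR target that remodels phospholipids, fell by 0.38.

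Srebf2, which encodes the factor for sterol synthesis (ENSMUSG00000022463, chr15:82147181-82205379, plus strand), had the largest log2 fold change of the 9 genes in size. The normal mice had 23.5, 20.6, 19.6 and 25.5 FPKM and the high fat mice 31.5, 33.6, 38.2 and 30.0 FPKM. The groups were 4.5 FPKM apart, and both were wide, with coefficients of variation of 12.1% and 10.7%. The mean rose from 22.3 ± 2.70 to 33.3 ± 3.57 FPKM (SD, n = 4), a log2 fold change of 0.58 ± 0.10 (SE, 95% interval 0.36 to 0.80, limma adjusted p = 0.0028), or 49.4% higher. The order of the mice by Srebf2 was the same as by summed cortical projection neuron markers within each diet, and both were highest in high fat mouse 3. With the cerebellar covariate the value was 0.35 (adjusted p = 0.146, limma), and with the oligodendrocyte covariate 0.48 (adjusted p = 0.399, limma).

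Srebf1, which encodes the factor for fatty acid synthesis (ENSMUSG00000020538, chr11:60199089-60222581, minus strand), had 11.8, 13.8, 13.8 and 11.8 FPKM in normal mice. The high fat mice had 13.1, 11.7, 14.1 and 10.9 FPKM, so that the range of the normal mice lay inside that of the high fat mice. The log2 fold change was -0.04 ± 0.09 (SE, 95% interval -0.25 to 0.16, limma adjusted p = 0.750). Its exons share 109 bases with Rai1 on the other strand and 66 with Mir6922 on the same strand, and the sources do not say whether reads were counted by strand. The log2 ratio of Srebf1 to Srebf2 fell from -0.79 ± 0.298 to -1.41 ± 0.109 (SD), a difference of -0.62 with no overlap between the diets (exact permutation p = 0.0286, adjusted 0.0286). The ratio was -0.57 and -0.50 in normal mice 2 and 3, against -0.99 and -1.11 in normal mice 1 and 4, and without normal mice 2 and 3 the difference was -0.37.

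Insig1, which keeps the SREBPs in the endoplasmic reticulum and is itself switched on by them (ENSMUSG00000045294, chr5:28071363-28078662, plus strand), went the opposite way to Srebf2. The normal mice had 34.2, 31.6, 34.3 and 32.2 FPKM and the high fat mice 25.4, 23.7, 27.0 and 24.8 FPKM. The groups were 4.6 FPKM apart, and both were narrow, with coefficients of variation of 4.17% and 5.46%. The mean fell from 33.1 ± 1.38 to 25.2 ± 1.38 FPKM (SD, n = 4), a log2 fold change of -0.39 ± 0.05 (SE, 95% interval -0.51 to -0.27, limma adjusted p = 0.0012), or 23.7% lower. Insig1 had the smallest p of the 9 genes. With the cerebellar covariate the value was -0.42 (adjusted p = 0.0308, limma), and with the oligodendrocyte covariate -0.27 (adjusted p = 0.351, limma).

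**Figure D2:**
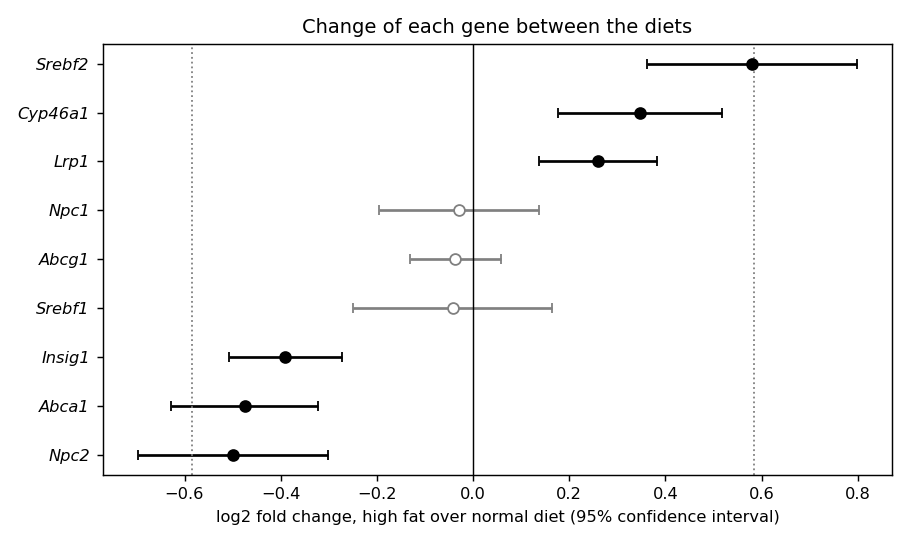
Log2 fold change (horizontal axis, high fat over normal) of each gene with its 95% confidence interval from 4 mice a diet. Filled points are called at an adjusted p below 0.05, open points are not, and dotted lines mark a 1.5-fold change in either direction. Srebf2 at 0.58 and Npc2 at -0.50 lie furthest from 0.

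Of 11 other tested genes for SREBP processing and its control, 2 rose and 0 fell at an adjusted p below 0.05 by limma (3 and 0 at an unadjusted p below 0.05). Scap, the sterol sensor that escorts the SREBPs, rose from 24.9 ± 1.01 to 29.3 ± 1.24 FPKM (log2 fold change 0.23), and Tmem97 rose by 0.35. Genes that SREBP-2 is known to switch on did not follow Srebf2 in the main. Of 20 sterol synthesis genes, 2 rose and 8 fell, and their median was -0.14. Sc5d fell from 28.7 ± 0.526 to 22.5 ± 0.310 FPKM (log2 fold change -0.35), Cyp51 fell from 23.3 ± 0.942 to 17.3 ± 0.661 FPKM (-0.43), and Idi1 fell from 5.25 to 3.83 FPKM (-0.45). Fdft1, the squalene synthase, rose from 25.6 ± 1.88 to 30.2 ± 0.714 FPKM (0.24). Of 13 tested genes for fatty acid synthesis under SREBP-1, 0 rose and 6 fell by limma (1 and 7 at an unadjusted p below 0.05, median -0.16). Scd1, the stearoyl desaturase, fell from 38.7 ± 3.41 to 26.0 ± 2.85 FPKM (-0.57), Gpam fell by 0.43 and Elovl5 by 0.38 on the log2 scale. Over all tested genes the median was 0.0031, with 15.3% called lower and 17.7% called higher.

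Npc2, the soluble lysosomal protein that picks up free cholesterol (ENSMUSG00000021242, chr12:84754562-84773152, minus strand), was lower on the high fat diet. The normal mice had 16.0, 19.0, 18.2 and 14.7 FPKM and the high fat mice 11.7, 11.1, 11.8 and 13.2 FPKM. The groups were 1.5 FPKM apart, the nearest values being those of mouse 4 in each diet. The mean fell from 16.98 ± 1.98 to 11.95 ± 0.889 FPKM (SD, n = 4), a log2 fold change of -0.50 ± 0.09 (SE, 95% interval -0.70 to -0.30, limma adjusted p = 0.00344), or 29.2% lower. The order of the normal mice by Npc2 was that of their summed oligodendrocyte markers, but that of the high fat mice was not. After subtraction of the diet means, Pearson r of Npc2 was 0.63 with these markers, 0.65 with cerebellar and -0.79 with cortical projection neuron markers. Npc1 (0.95), Abcg1 (0.85) and Srebf1 (0.76) followed the oligodendrocyte markers more closely. Such orders were looked up for every gene and several marker lists, so that a match is only a description. With the oligodendrocyte covariate the value was -0.20 (adjusted p = 0.638, limma), and with the cerebellar covariate -0.29 (adjusted p = 0.175, limma).

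Npc1, the membrane protein that takes cholesterol from Npc2 (ENSMUSG00000024413), had 17.3, 18.9, 17.2 and 14.8 FPKM in normal mice and 16.3, 16.5, 17.8 and 16.0 FPKM in high fat mice. The high fat values lay within the normal range. The log2 fold change was -0.03 ± 0.07 (SE, 95% interval -0.20 to 0.14, limma adjusted p = 0.781). Its exons share 511 bases with Rmc1 and 90 with Gm15956, both on the other strand. Npc1 and Npc2 stood at the same level in normal mice, with a log2 ratio of 0.0083 ± 0.0796 (SD), and the ratio was 0.48 ± 0.143 on the high fat diet. The difference of 0.47 had no overlap between the diets (exact permutation p = 0.0286, adjusted 0.0286).

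Of 20 other tested genes for endosomal and contact-site sterol transport, 4 rose and 3 fell (median of all 22, -0.03). These counts are near the shares over all genes, 17.7% higher and 15.3% lower. Gramd1a and Gramd1b, which carry sterol from the plasma membrane to the endoplasmic reticulum, rose from 31.6 ± 0.412 to 38.5 ± 0.858 FPKM and from 28.6 ± 0.497 to 34.8 ± 1.59 FPKM, or by 0.28 each on the log2 scale. Osbpl10, of the oxysterol-binding protein family, rose by 0.61 and Osbpl8 of the same family fell by 0.25. Lamp1, a major protein of the lysosomal membrane, fell from 151.9 ± 16.1 to 123 ± 2.12 FPKM (-0.30).

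**Figure D3:**
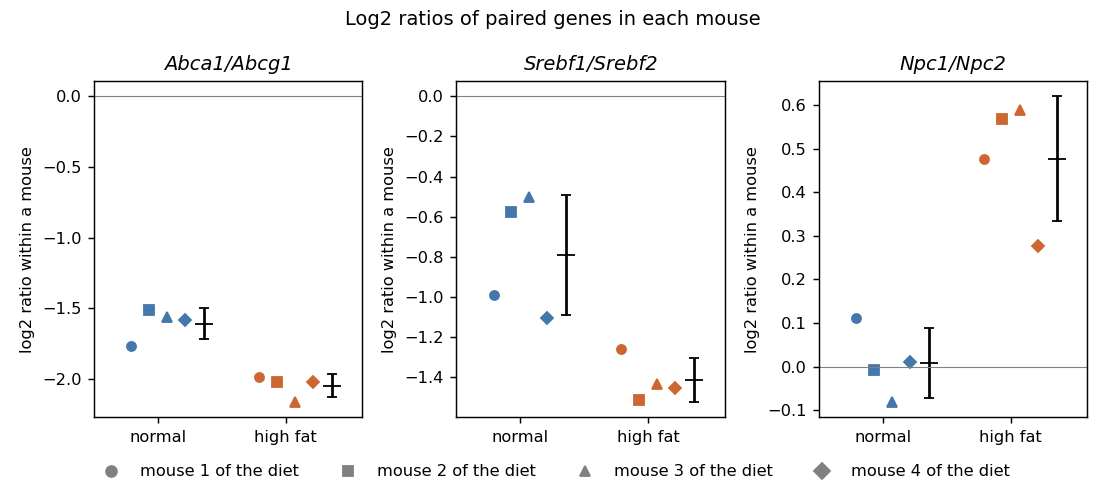
Log2 ratio within each mouse (vertical axes) of Abca1 to Abcg1, Srebf1 to Srebf2 and Npc1 to Npc2 in the normal and high fat diets, with bars for the mean ± SD of 4 mice. No panel has a high fat mouse within the range of the normal mice, and the differences of the means are -0.44, -0.62 and 0.47.

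Cyp46a1, the neuronal cholesterol 24-hydroxylase (ENSMUSG00000021259, chr12:108334381-108362234, plus strand), was higher on the high fat diet. The normal mice had 79.3, 63.8, 60.7 and 70.1 FPKM and the high fat mice 88.0, 88.8, 85.4 and 84.7 FPKM. The high fat mice were close together, with a coefficient of variation of 2.29%, and the normal mice were spread, at 11.99%. The mean rose from 68.5 ± 8.21 to 86.7 ± 1.98 FPKM (SD, n = 4), a log2 fold change of 0.35 ± 0.08 (SE, 95% interval 0.18 to 0.52, limma adjusted p = 0.00825), or 27.3% higher. Among normal mice its order was the reverse of that by cerebellar markers. Normal mice 2 and 3 had the lowest Cyp46a1 and the highest cerebellar marker sums of 277.9 and 370.7 FPKM. Among normal mice these 2 also had the highest thalamic sums (167.6 and 165.9 FPKM). Their cortical projection neuron sums were the lowest (564.4 and 514.6 FPKM). Among high fat mice the order by Cyp46a1 was not the reverse of that by cerebellar markers. With the cerebellar covariate the log2 fold change was 0.07 (adjusted p = 0.472, limma), with the oligodendrocyte covariate 0.21 (adjusted p = 0.618, limma), and without normal mice 2 and 3 it was 0.22 (adjusted p = 0.0372, limma).

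Of 5 other tested genes for oxysterols and sterol esters, 0 rose and 2 fell by limma, and also at an unadjusted p below 0.05. By limma 17.7% of all genes were called higher and 15.3% lower. Cyp7b1, the oxysterol 7-alpha-hydroxylase, fell from 7.35 ± 0.252 to 5.30 ± 0.408 FPKM (log2 fold change -0.47). Cyp27a1, the sterol 27-hydroxylase, fell from 3.18 ± 0.776 to 2.00 ± 0.216 FPKM (-0.62). Cyp46a1 and these 2 genes moved in opposite directions.

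**Figure D4:**
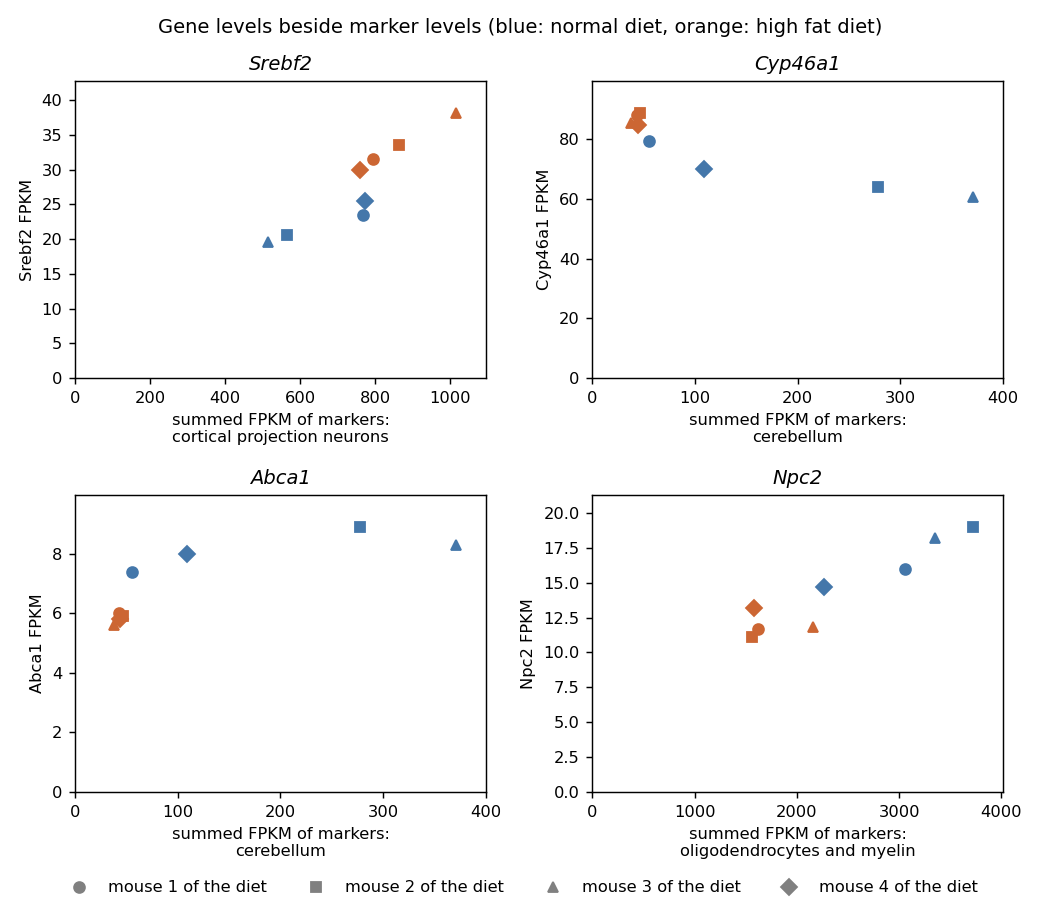
FPKM of Srebf2, Cyp46a1, Abca1 and Npc2 (vertical axes, from 0) against the summed FPKM of the markers of a cell type or region (horizontal axes, from 0), 1 point per mouse. Srebf2 rises with cortical projection neuron markers within both diets, and Cyp46a1 falls along the cerebellar markers among the normal mice.

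Leaving out normal mice 2 and 3, a choice made after the data were seen, left 6 of the 9 genes called. Their log2 fold changes were then 0.30 for Lrp1, -0.40 for Abca1, 0.44 for Srebf2, -0.40 for Insig1, -0.36 for Npc2 and 0.22 for Cyp46a1. The cerebellar covariate left 2 called (Insig1 and Lrp1), with 793 genes called in all, and the oligodendrocyte covariate left 0, with 6 genes called in all by limma (an unadjusted p below 0.05 was found for 13.2% of all genes and for 4 of the 9, which were Lrp1, Abca1, Insig1 and Npc1, the last with a log2 fold change of 0.33 in place of -0.03). The oligodendrocyte and the cerebellar marker sums each did not overlap between the diets. The covariates were means of log2(FPKM + 0.1) over the markers, and their own overlap was not checked. It is therefore not shown that either covariate can be told apart from the diet.

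**Figure D5:**
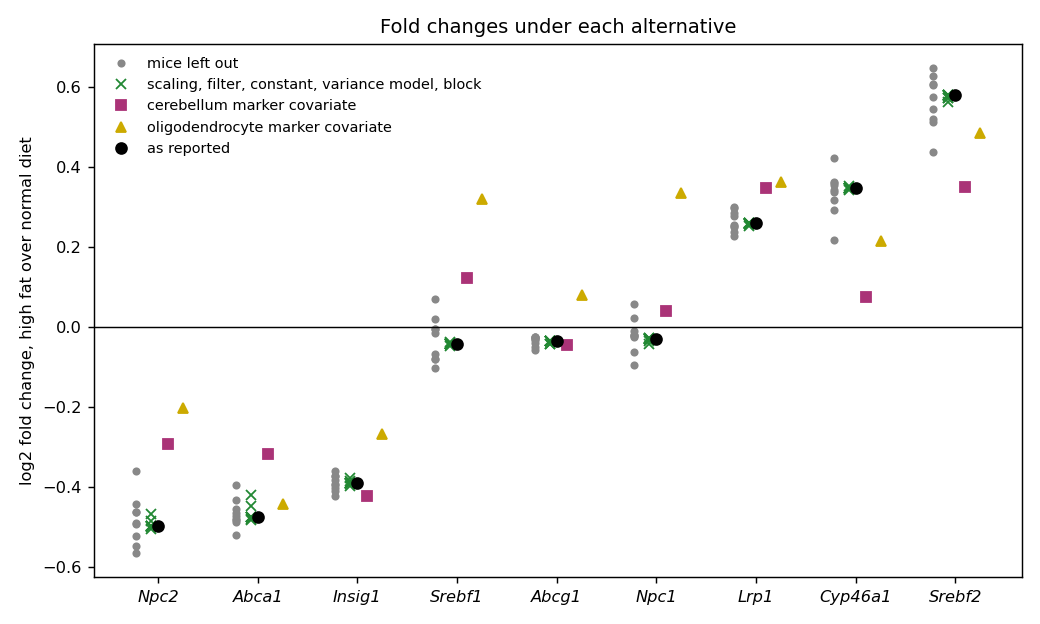
Log2 fold change (vertical axis, high fat over normal) of each gene as reported and under each alternative. The 6 called genes keep their direction under each, and Cyp46a1 comes nearest to 0, at 0.07 with the cerebellar marker covariate.

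The genes whose mouse-to-mouse pattern was most like each of the 9 were looked for among 6884 genes with a mean of at least 10 FPKM, by Pearson r over 8 mice after the mean of each diet was subtracted. These values share the libraries and their tissue content and are a description. Each is among the highest found in a search of 6884 genes on 8 mice. Such a search can return a high r without any link between the genes, and no chance level was computed. Srebf2 went with Grin1, an NMDA receptor subunit, and Pip5k1c (both r = 0.99), and Cyp46a1 with Sgtb and Pde8b (both 0.99). Abca1 went with Fubp1 (0.97) and with Apoe (0.95), the apolipoprotein it lipidates, whose own means were 1096 and 1049 FPKM. Lrp1 went with Dnmt3a (0.99) and Reps1 (0.97), Abcg1 with Slc48a1 and Mb21d2 (both 0.97), and Srebf1 with Aes (0.99) and Ogdhl (0.98). Npc2 went with Trappc13 and Vimp (both 0.98), Npc1 with Slc9a3r1 (0.97) and RP23-349I9.6 (0.96), and Insig1 with Adsl (0.93) and Capzb (0.92).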

How the data were processed

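Ribosomal RNA was removed from total RNA of 8 cortices (RNA integrity number above 9), and stranded paired-end libraries were sequenced. Per the methods, the authors checked reads with FastQC, trimmed with Trimmomatic and used STAR for alignment to mm10. The deposited FPKM values came from Cuffnorm on the GENCODE basic annotation (GRCm38.p6). The sources used here name no tool versions. FPKM keeps no read count, so the depth of each library is unknown, and the 4 mice a diet limit precision. FPKM sums were 562431 to 639142 per mouse.

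From these values, 13982 of 13996 genes were tested (mean FPKM at least 1 and no 0, which left out 2 and 12 genes). Limma 3.58.1 (R 4.3.3) was run on log2(FPKM + 0.1) with a variance trend and diet as the only term, two-sided, adjusted by Benjamini-Hochberg. This scale understates changes of low genes. The 3 ratios had exact permutation tests (scipy 1.17.1). The script was tested on simulated data. It called 33 of 100 genes with a 1.25-fold change, 63 of 100 with a 1.5-fold change and 5 of 13782 unchanged genes. The simulation changed few genes, while 33.1% were called in the data, so these shares may not carry over. With diet alone, the 95% log2 intervals were -0.13 to 0.06 (Abcg1), -0.25 to 0.16 (Srebf1) and -0.20 to 0.14 (Npc1). In that fit these intervals leave out a 1.25-fold change in either direction. Other genes that were not called may still have changed by these amounts. Alternatives were other constants, filters, scalings and variance models, a replicate block, marker covariates and mice left out.

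The 9 genes, the lists and the tests were chosen with earlier results of these data known. Named genes were the 9, up to 3 called genes in each direction with the smallest adjusted p in each pathway list (the 9 count among them), and the 2 most similar genes to each. Mean log2(FPKM + 0.1) of a marker list was the covariate. Gene positions are from GENCODE M21 (GRCm38), sequences and promoters from RefSeq, and neither promoter of Abcg1 nor of Npc1 was used here. Some genes that this rule picks are not reported here. Circular RNA data were not analysed here.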

Additional observations from a re-analysis of the deposited data

How the results depend on the processing

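The 6 called genes kept their direction and call in 102 of 102 fits over 17 alternatives without a marker covariate, with a highest adjusted p (limma) of 0.0372 with mice left out. The calls over all genes were 4626 (997 past a 50% change). Past 50% they were 603 with a constant of 1 and 422 with a mean of at least 5 FPKM. With the cerebellar covariate 793 (327) genes and 2 of the 9 were called, and with the oligodendrocyte covariate 6 (6) and 0. Without normal mice 2 and 3 together, chosen after seeing the data, 2743 (604) were called. The cause of these losses was not tested. Leaving out 1 mouse gave 3295 to 4619 (771 to 1196) genes and 6 of the 9 throughout. Past 50%, 0 to 1 of the 9 were called, Srebf2 being the 1 without normal mouse 1, normal mouse 4, high fat mouse 1 or high fat mouse 4.

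Signs changed in genes that were not called. Srebf1 was 0.12 with the cerebellar and 0.32 with the oligodendrocyte covariate, -0.104 to 0.0187 with 1 mouse left out (above 0 without high fat mouse 4) and 0.0697 without normal mice 2 and 3. Npc1 was 0.0384, 0.33, -0.0956 to 0.0213 (above 0 without normal mouse 2) and 0.0558 in that order, and Abcg1 was 0.0803 with the oligodendrocyte covariate. With a replicate block, 3390 (896) genes and 6 of the 9 were called. Mice of the same number had correlations of deviations from -0.11 to -0.03, so that no likeness by number was seen. The labels do not say what the numbers stand for, and these values cannot exclude a shared batch. Without normal mice 2 and 3 the differences of the 3 ratios were -0.37 (Abca1 to Abcg1), -0.37 (Srebf1 to Srebf2) and 0.42 (Npc1 to Npc2), with no test. A paired sign-flip test of the ratios cannot go below 0.125. Without depth, counting error could not be separated from the spread between mice.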

Other observations

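Several other tissue markers differed between mice and stand beside the values of the 9 genes without having been tested for a part in them. Ependymal markers summed to 9.5 to 19 FPKM in normal and 2.9 to 7.2 FPKM in high fat mice, and 4 of 4 were lower. Blood markers summed to 239 to 480 against 199 to 247 FPKM, and 5 of 5 were lower. Choroid plexus markers summed to 346 to 733 FPKM in normal mice, but to 79.3, 23, 29 and 949.7 FPKM in high fat mice 1 to 4, so that high fat mouse 4 stood apart. Without high fat mouse 4, 6 of the 9 genes were still called. The choroid plexus sums of the other high fat mice all lay below those of the normal mice. Choroid plexus content and diet therefore cannot be told apart in that fit. Endothelial markers summed to 92.8 to 103 against 83.6 to 91.5 FPKM (1 of 8 higher, 4 lower), and interneuron markers to 435.6 to 495 against 392 to 434 FPKM (2 of 7 higher, 4 lower).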
